A study of Drosophila melanogaster with 19 samples.

Results

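The genes described here were 7 enzymes and enzyme-related proteins of S-adenosylmethionine metabolism in *Drosophila melanogaster*, out of 13929 genes in the count tables. They were *Gnmt*, *Sam-S*, *Ahcy*, *AhcyL1*, *Sardh*, *Cbs* and *Eip55E*. They were taken by name as genes of the methionine cycle and of transsulfuration, with *Gnmt* at their head because its level was already known to be higher at day 50. *Gnmt* was thus chosen by its measured levels at the ages of the time course, and these are given as a description with no test. The comparison of day 50 with day 30 is given without a test for all 7 genes.

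S-adenosylmethionine is the methyl donor of most methylation reactions in the cell. Sam-S makes it from methionine and ATP, and each methyl transfer turns it into S-adenosylhomocysteine, which Ahcy splits into adenosine and homocysteine. Gnmt uses it to methylate glycine to sarcosine, a reaction known in the fly fat body as an outlet for surplus S-adenosylmethionine, and Sardh turns sarcosine back into glycine. Cbs and the product of *Eip55E* carry homocysteine through transsulfuration to cysteine, a building block of glutathione.

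Nuclear RNA was profiled in outer photoreceptors of male flies of a single genotype. It combined the transgene UAS-GFP-Msp300KASH at attP2 with the driver rh1-GAL4, in a w background with the allele ry[506]. The driver is active where the promoter of Rhodopsin 1 is, the transgene puts green fluorescent protein on the nuclear membrane of those cells, and an antibody then enriched the tagged nuclei from heads. All 19 libraries carried this genotype, and replicates came from separate pools of males. Flies aged to day 30, 40, 50 and 60 after eclosion (D30, D40, D50 and D60, 3 libraries each) and to day 20 (D20, 3 libraries) were kept at 25 °C in 12 h of light and 12 h of darkness and collected 6 h after lights on (ZT 6). Flies labelled DD (constant darkness) and LD (light:dark cycle) gave 2 libraries each, and their labels also give 25 °C and ZT 6. The labels state no age for DD and LD, and the headings of their count columns and their sample titles differ in the day they give, so their age is uncertain.

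D30 to D60 came in 1 count table and D20, DD and LD in another. The libraries held 629634 to 864536 counts from D30 to D60, 4525799 to 5100377 counts at D20 and 16255052 to 19704692 counts in DD and LD. All 9 outer photoreceptor markers, *ninaE*, *trp*, *trpl*, *norpA*, *inaD*, *ninaC*, *Arr1*, *Arr2* and *chp*, had counts in every group. Markers of other cells were also present, and the 4 rhodopsins of the inner photoreceptors (*Rh3*, *Rh4*, *Rh5*, *Rh6*) summed to 64.5 to 89.3 CPM (counts scaled to a common library size, with TMM factors) at D20, against 2808 to 2871 CPM in LD. Some libraries stood apart from their group. The LD pair correlated at r = 0.758 on the log2 CPM scale, and 2152 of the 7742 genes that reached 50 counts in an LD library (27.8%) were at 0 in its partner. In the DD pair this share was 523 of 7499 genes (6.97%), and at every age it was 0. D30 replicate 1 correlated at r = 0.934 and 0.932 with the other D30 libraries, which correlated with each other at r = 0.973.

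*Gnmt*, glycine N-methyltransferase (FBgn0038074, BDGP6 3R:12674608-12676084, plus strand, protein coding), was low at D30 and D40 and higher at D50 and D60. D30 libraries held 5, 5 and 4 counts, D40 libraries 7, 12 and 14, D50 libraries 38, 36 and 24, and D60 libraries 18, 30 and 20. On the CPM scale these were 7.96, 6.37 and 5.88 for D30, 8.25, 13.9 and 16.8 for D40, 45.6, 43.6 and 30.1 for D50, and 26.8, 39.6 and 27.6 for D60. Every D50 and D60 library lay above every D30 and D40 library, the D50 and D60 libraries overlapped, and the lowest D40 library lay just above the highest D30 library, an order in which 6.6% of 4209 genes had D40 and D30. The D30 level rested on 14 counts over the 3 libraries, and the D50 level on 98. Fewer nuclei of a cell type and less RNA per nucleus cannot be told apart in such libraries.

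The mean level of *Gnmt* by age, from D30 to D60, was 6.74 ± 1.09, 13.0 ± 4.35, 39.8 ± 8.47 and 31.3 ± 7.20 CPM (SD, n = 3 each). In edgeR the log2 fold change of *Gnmt* was 2.57 ± 0.36 for D50 against D30 and 2.22 ± 0.35 for D60 against D30 (SE), and its slope over D30 to D60 was 0.76 ± 0.15 per 10 days. Of all 4179 genes tested in that comparison, 1.17% were called higher at D50 at an adjusted p-value under 0.05 and 11.4% had every D50 library above every D30 library, but since this contrast chose *Gnmt* nothing was read from these shares. *Gnmt* passed the expression filter of edgeR only in fits that held D50, D60 or the deeper libraries. In the fit of D40 against D30 it was filtered out.

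**Figure D1:**
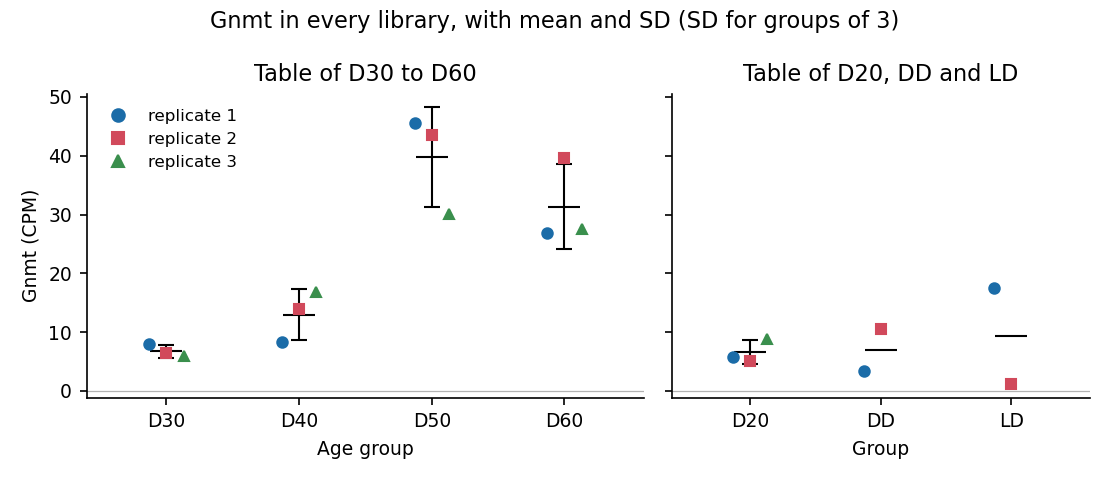
*Gnmt* level in each library, in CPM on the vertical axis, by group on the horizontal axis, with the group mean as a dash and the SD as a bar for groups of 3 libraries (none for the pairs DD and LD). The left panel holds the table of D30 to D60, where D50 libraries lay at 30.1 to 45.6 CPM and D30 libraries at 5.88 to 7.96 CPM, and the right panel holds D20, DD and LD, where the LD libraries lay at 17.5 and 1.18 CPM.

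Outside these 4 ages, *Gnmt* was low in most libraries. D20, in the other table, had 27, 20 and 37 counts, or 5.77, 5.02 and 8.89 CPM. These values overlapped those of D30, and the log2 fold change for D30 against D20 was 0.13 ± 0.45 (SE), where age and count table cannot be told apart. In DD, *Gnmt* had 52 and 194 counts (3.31 and 10.53 CPM), and in LD it had 335 and 29 counts (17.5 and 1.18 CPM). Relative to total counts, LD replicate 1 held 13.6 times the *Gnmt* of LD replicate 2 (95% exact interval 9.32 to 20.7, counting error only).

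The libraries of DD and LD played no part in choosing *Gnmt*, and it was tested there. The log2 fold change for DD against LD was -0.43 ± 1.90 (SE, 95% interval -5.09 to 4.24, edgeR adjusted p = 0.99979), and for D20 against LD it was -0.45 ± 1.16 (95% interval -3.44 to 2.53, adjusted p = 0.85376). Neither difference was larger than the spread between replicates, and both intervals held changes in either direction. The D20 result turned on the LD library used. Without LD replicate 1 it was 2.54, and without LD replicate 2 it was -1.33, each with LD left at 1 library.

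The exons of *Gnmt* share 75 bases with *CG43630*, a gene on the opposite strand. Whether the counting used strand was not stated, but *CG43630* had at most 1 count in any library. No other member shared exon bases with another gene.

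Markers of other cells were compared with *Gnmt*, which is known from the fat body. The 11 fat body markers summed to 1719, 1460 and 922 CPM at D50, against 1110, 657 and 575 CPM at D30, so that the groups overlapped at D30 replicate 1. At D60 they summed to 1029 to 1095 CPM, within the range of the D30 libraries. Of the 11, 5 could be tested at D50 and edgeR called 0, against 57 of all 4179 genes. Of these 5, 3 had an unadjusted p-value under 0.05, as had 616 of all 4179 genes, and DESeq2 called 0. At D60, where 23.6% of all 4068 genes were called, 4 could be tested and 2 were called. These were *Apoltp*, a lipid transfer protein, at 1.15 ± 0.25 (adjusted p = 0.00643), and *Tsf1*, an iron carrier, at 0.61 ± 0.13 (SE, log2 fold change, adjusted p = 0.00495). *apolpp*, the apolipoprotein that made up most of the sum, changed by 0.96 ± 0.33 at D50 (adjusted p = 0.21371) and by 0.39 ± 0.28 at D60 (adjusted p = 0.37016). The larval serum protein gene *Lsp1gamma* was at 0 in every group, and *Fbp1* was at 0 at D30, D40 and D60. D20, in the other count table with its own scaling and deeper libraries, had the sum at 1320 to 1445 CPM, with *Gnmt* at 5.02 to 8.89 CPM. These sums lay above every D30 library, but age and count table cannot be told apart here.

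The 7 glial markers summed to 132 to 135 CPM at D30, 151.8 to 201.5 CPM at D40, 139 to 269 CPM at D50 and 399 to 450 CPM at D60. At D60, where 23.6% of all 4068 genes were called, 4 of the 7 could be tested and 1 was called. This was the glutamate transporter *Eaat1*, with a log2 fold change of 2.92 ± 0.21 (SE, edgeR adjusted p = 2.66e-06). Its mean was 329 ± 20.7 CPM at D60 and 44.0 ± 17.2 CPM at D30 (SD, n = 3 each). The other 3 glial markers that could be tested were not called, with *Gat* at 0.85 ± 0.35 (adjusted p = 0.106), *Gs2* at -0.23 ± 0.24 (adjusted p = 0.557) and *moody* at -0.29 ± 0.57 (adjusted p = 0.768). The glial marker *repo* averaged 7.03 CPM at D60 and 8.03 CPM at D30, and no glial marker was at 0 in any group. The part of other cells in the level of *Gnmt* was not tested.

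**Figure D2:**
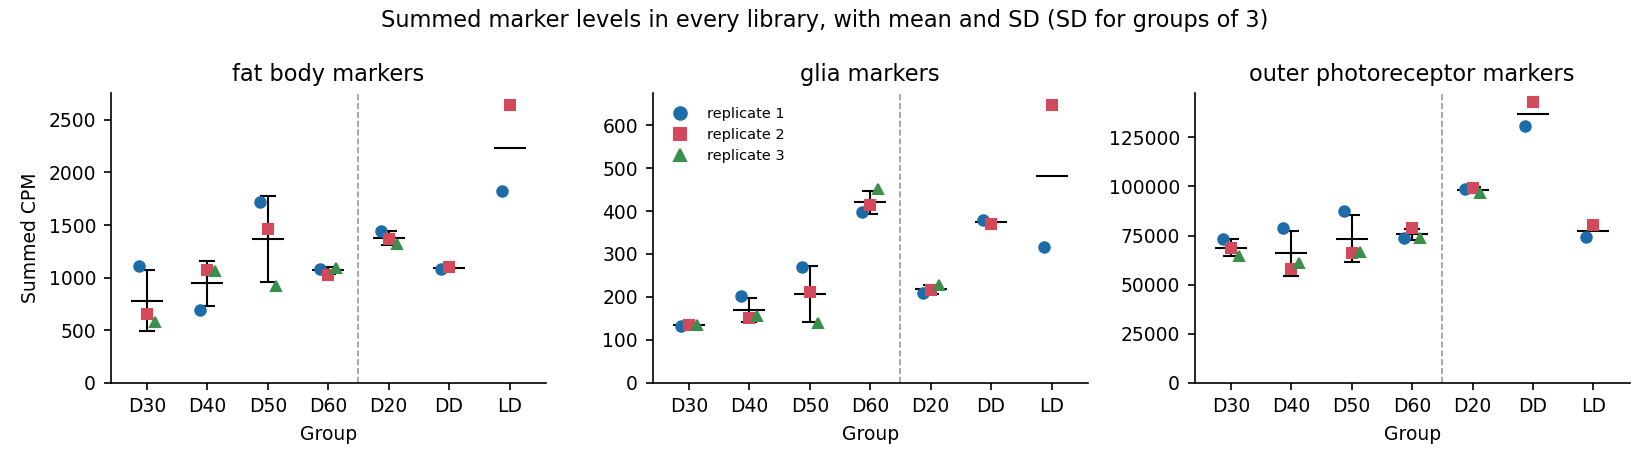
Summed CPM of the fat body, glial and outer photoreceptor markers in each library, by group, with the group mean as a dash and the SD as a bar for groups of 3 libraries; the dashed line parts the 2 count tables. Fat body markers at D50 spanned 922 to 1719 CPM and overlapped D30 at 575 to 1110 CPM, and the glial sum was highest at D60 among the 4 ages of its table.

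*Sam-S*, S-adenosylmethionine synthetase (FBgn0005278, BDGP6 2L:106903-114432), was the most abundant member per kilobase in every group, and it was the only one of the members tested that passed the threshold between D60 and D30. *Sam-S* had 165, 161 and 158 CPM at D60, against 210, 206 and 268 CPM at D30, and all D60 libraries lay below all D30 libraries. The means were 161.6 ± 3.39 CPM at D60 and 228.0 ± 34.3 CPM at D30 (SD, n = 3 each). The log2 fold change of *Sam-S* was -0.48 ± 0.13 (SE, edgeR adjusted p = 0.0225), a call that was lost with DESeq2 and without some single libraries. *Gnmt*, which consumes the product of Sam-S and was chosen by its levels, had higher values at D60 than at D30.

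Of the 3 members other than *Gnmt* that could be tested between D60 and D30, 1 was called, against 23.6% of all 4068 genes tested, and 18.9% of genes had every D60 library below every D30 library. A drop of this kind was therefore common among all genes. The call on *Sam-S* was lost with DESeq2 (adjusted p = 0.0875) and without D30 replicate 3, D60 replicate 1, D60 replicate 2 or D60 replicate 3 (adjusted p between 0.0734 and 0.0920). Between these ages *Sam-S* had 200, 231 and 196 CPM at D40 and 185, 173 and 252 CPM at D50, overlapping D30 at both ages. Its slope over the 12 libraries was -0.15 ± 0.05 per 10 days (95% interval -0.26 to -0.04, adjusted p = 0.0578), and it passed the threshold without D50 replicate 3 (-0.17, adjusted p = 0.0152). For D40 against D30 *Sam-S* differed by -0.12 ± 0.16 (95% interval -0.48 to 0.24, adjusted p = 0.924).

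*Sam-S* had 185.5, 192.4 and 196.6 CPM at D20, against 133 and 121 CPM in LD, with 112 and 151 CPM in DD. D20 lay above LD with a log2 fold change of 0.63 ± 0.10 (SE, edgeR adjusted p = 0.0130), in a comparison where 23.9% of 7769 genes were called and 34.5% had every D20 library above both LD libraries. D20 and LD had the same labelled temperature and collection time, but age, depth and any difference in preparation cannot be told apart between them. Scaled by library size alone, the difference in *Sam-S* was 0.17 (adjusted p = 0.276), and without D20 replicate 1, 2 or 3 the adjusted p-value lay between 0.0694 and 0.103. That scaling moved the median of all genes to -0.31, against 0.15 with TMM, and the share of calls that were higher at D20 to 35.5%, against 57.8%. For D30 against D20 the difference in *Sam-S* was 0.35 ± 0.13 (adjusted p = 0.0681), and it passed the threshold with library size alone (adjusted p = 0.0477) or without D30 replicate 1 (adjusted p = 0.0302).

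Set against *Sam-S* in the same library, with counts divided by exon length, *Gnmt* was a small fraction at the younger ages. Per kilobase *Gnmt* reached 10.9 ± 2.86%, 22.5 ± 8.07%, 74.0 ± 27.0% and 69.7 ± 16.3% of *Sam-S* at the successive ages from D30 to D60 (SD, n = 3 each). The D50 libraries spanned 42.9 to 90.5% and the D30 libraries 7.90 to 13.6%. At D20 the ratio was 12.3 ± 3.57%. Among the 7 genes *Gnmt* had the second highest mean level per kilobase at D40, D50 and D60, after *Sam-S*. At D40 it had 13.1 ± 4.39 CPM per kilobase, followed by *AhcyL1* with 7.12 ± 3.15 CPM per kilobase, and the libraries of these genes overlapped. At D50 and D60 it had 40.2 and 31.6 CPM per kilobase, against 57.1 and 45.4 CPM per kilobase for *Sam-S*, and every library lay above all those of the genes ranked lower. At D30 it had 6.80 ± 1.10 CPM per kilobase, after *AhcyL1* with 8.85 ± 2.52 CPM per kilobase and *Cbs* with 19.9 ± 28.5 CPM per kilobase, and these neighbours did not differ beyond their spread.

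*Ahcy* (FBgn0014455, BDGP6 X:15450261-15453167), the hydrolase of S-adenosylhomocysteine, was near the detection limit from D30 to D60, with 3 to 7 counts per library. Its mean level was 5.93 ± 3.16, 6.27 ± 1.28, 6.09 ± 1.10 and 7.78 ± 2.88 CPM from D30 to D60 (SD, n = 3 each). It did not pass the filter at these ages. With no filter the log2 fold change of *Ahcy* was 0.43 ± 0.59 for D60 against D30 (SE, 95% interval -0.73 to 1.60, edgeR adjusted p = 0.725) and its slope was 0.13 ± 0.19 per 10 days (95% interval -0.26 to 0.51, adjusted p = 0.814). The deeper libraries held 16, 11 and 25 counts at D20 and 142 and 152 counts in DD, against 0 and 85 counts in LD. The count of 0 in LD replicate 1 came from the library pair in which many genes had counts on 1 side only. The difference was 2.27 ± 2.86 for DD against LD (95% interval -4.76 to 9.30, edgeR adjusted p = 0.99979), 1.24 ± 2.02 for D20 against LD (adjusted p = 0.757) and 0.60 ± 0.55 for D30 against D20 (adjusted p = 0.491). Without LD replicate 2 both comparisons with LD rested on 1 LD library, which had no count of *Ahcy*, so those calls were not taken as results.

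*AhcyL1* (FBgn0035371, BDGP6 3L:2768466-2772325), a relative of *Ahcy* that is known in mammals to bind a receptor for inositol phosphates rather than to act as the hydrolase, was several times higher than *Ahcy* per kilobase in the deeper libraries. It had 29.9, 28.6 and 27.4 CPM at D20, 46.5 and 46.5 CPM in DD, and 31.7 and 46.0 CPM in LD. With age it had 20.7, 24.2 and 35.3 CPM at D30, 24.7, 29.0 and 10.8 CPM at D40, 28.8, 30.3 and 27.6 CPM at D50, and 37.2, 39.6 and 27.6 CPM at D60. The groups overlapped at each of these ages. The log2 fold change of *AhcyL1* was 0.39 ± 0.28 for D60 against D30 (95% interval -0.23 to 1.02, edgeR adjusted p = 0.370) and -0.30 ± 0.39 for D40 against D30 (adjusted p = 0.914). Its slope was 0.16 ± 0.10 per 10 days (adjusted p = 0.322). No call was made for *AhcyL1* in DD against LD (0.23 ± 0.45, 95% interval -0.87 to 1.34, adjusted p = 0.99979), in D20 against LD (-0.41 ± 0.27, adjusted p = 0.376) or in D30 against D20 (0.00 ± 0.23, 95% interval -0.48 to 0.49, adjusted p = 0.994). Without LD replicate 1 the difference between D20 and LD was -0.61, with LD left at 1 library.

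*Sardh* (FBgn0034276, BDGP6 2R:17753555-17756422), sarcosine dehydrogenase, acts on the product of Gnmt and was the least counted member. D30 libraries had 1, 0 and 2 counts, D40 libraries 1, 1 and 2, D50 libraries 4, 2 and 1, and D60 libraries 1, 4 and 1. With no filter the log2 fold change of *Sardh* for D60 against D30 was 0.86 ± 1.12 (95% interval -1.33 to 3.05, edgeR adjusted p = 0.698), an interval that held changes in either direction. D20 libraries had 12, 9 and 9 counts of *Sardh*, DD libraries had 43 and 0, and both LD libraries had 0, read as up to 3 counts in each. D20 averaged 2.33 ± 0.21 CPM (SD, n = 3), 16.7 times the 0.139 CPM that 3 counts per LD library stand for. This ratio covers counting error only and is not a lower bound on the difference. Of the genes that reached 50 counts in an LD library, 27.8% were at 0 in its partner. *Sardh* passed the filter through the D20 libraries alone, the group where it was high. The difference was called (edgeR adjusted p = 0.0226), but the call was lost without D20 replicate 1, 2 or 3 (adjusted p between 0.109 and 0.116).

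*Cbs* (FBgn0031148, BDGP6 X:21045138-21049096), cystathionine beta-synthase, is the entry to transsulfuration, and its picture with age turned on 1 library. It had 23.8, 26.4 and 23.4 CPM at D60, against 116, 7.64 and 7.35 CPM at D30, and D30 replicate 1 held 73 counts where the other D30 libraries held 6 and 5. With that library the log2 fold change for D60 against D30 was -0.75 ± 0.81 (SE, 95% interval -2.52 to 1.03, edgeR adjusted p = 0.565). Without it the log2 fold change was 1.70 ± 0.44 (adjusted p = 0.00106). In that fit *Cbs* passed the filter through the D60 libraries alone, so the call was not taken as a result.

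The intermediate ages of *Cbs* lay between the lower D30 libraries and D60. D40 had 21.2, 8.11 and 9.60 CPM, and D50 had 14.4, 23.0 and 20.0 CPM. The slope of *Cbs* was -0.23 ± 0.24 per 10 days (adjusted p = 0.559), and 0.53 ± 0.13 without D30 replicate 1 (adjusted p = 0.00780). The remaining D30 libraries, at 7.64 and 7.35 CPM, did not reach the filter minimum. *Cbs* thus entered that slope fit through later ages, where it was higher, and the call was not taken as a result. For D50 against D30 the log2 fold change was -1.11 ± 0.82, and 1.35 without that library. D30 replicate 1 was also the D30 library that correlated least with its group and the one with the highest fat body sum. At D40, D60 and in LD the library with the most *Cbs* had the lowest fat body sum of its group. These sums were 693 CPM in D40 replicate 1, 1029 CPM in D60 replicate 2 and 1824 CPM in LD replicate 1. In DD the library with the most *Cbs* had the higher sum, and at D20 and D50 the middle one. The part of other cells in the level of *Cbs* was not tested.

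*Cbs* had 10.47, 13.3 and 10.1 CPM at D20, 6.67 and 12.9 CPM in DD, and 66.4 and 14.8 CPM in LD. As for *Gnmt*, the LD libraries differed, with LD replicate 1 at 4.13 times LD replicate 2 relative to total counts (95% exact interval 3.67 to 4.65). *Cbs* differed by -2.06 ± 0.96 between DD and LD (edgeR adjusted p = 0.585) and by -1.80 ± 0.66 between D20 and LD (adjusted p = 0.123). Fits without LD replicate 2 rested on 1 LD library, at 66.4 CPM, so their calls on *Cbs* were not taken as results. For D30 against D20 the difference was 1.97 ± 0.68 (adjusted p = 0.0550), and -0.52 without D30 replicate 1 (adjusted p = 0.444). It passed the threshold without D30 replicate 2 (adjusted p = 0.00862) and without D30 replicate 3 (adjusted p = 0.0161), fits in which D30 replicate 1 had more weight.

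*Eip55E* (FBgn0000566, also named *Cth*, BDGP6 2R:18627918-18629395) encodes cystathionine gamma-lyase, which completes transsulfuration. D30 libraries held 5, 3 and 5 counts, D40 libraries 1, 1 and 2, D50 libraries 3, 1 and 3, and D60 libraries 1, 1 and 1. Every D60 and every D40 library was below every D30 library on the CPM scale, an order that 18.9% of the genes tested had at D60 and 6.39% at D40, but *Eip55E* did not pass the filter. With no filter its log2 fold change was -2.04 ± 0.90 for D60 against D30 (edgeR adjusted p = 0.154) and -1.89 ± 0.86 for D40 against D30 (adjusted p = 0.719). The deeper libraries held 16, 8 and 13 counts at D20 (2.01 to 3.42 CPM), 49 and 125 counts in DD (3.11 and 6.79 CPM), and 114 and 125 counts in LD (5.95 and 5.08 CPM). DD overlapped LD, with a difference of -0.17 ± 2.01 (95% interval -5.11 to 4.77, adjusted p = 0.99979), and D20 differed from LD by -0.91 ± 0.77 (adjusted p = 0.49972).

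**Figure D3:**
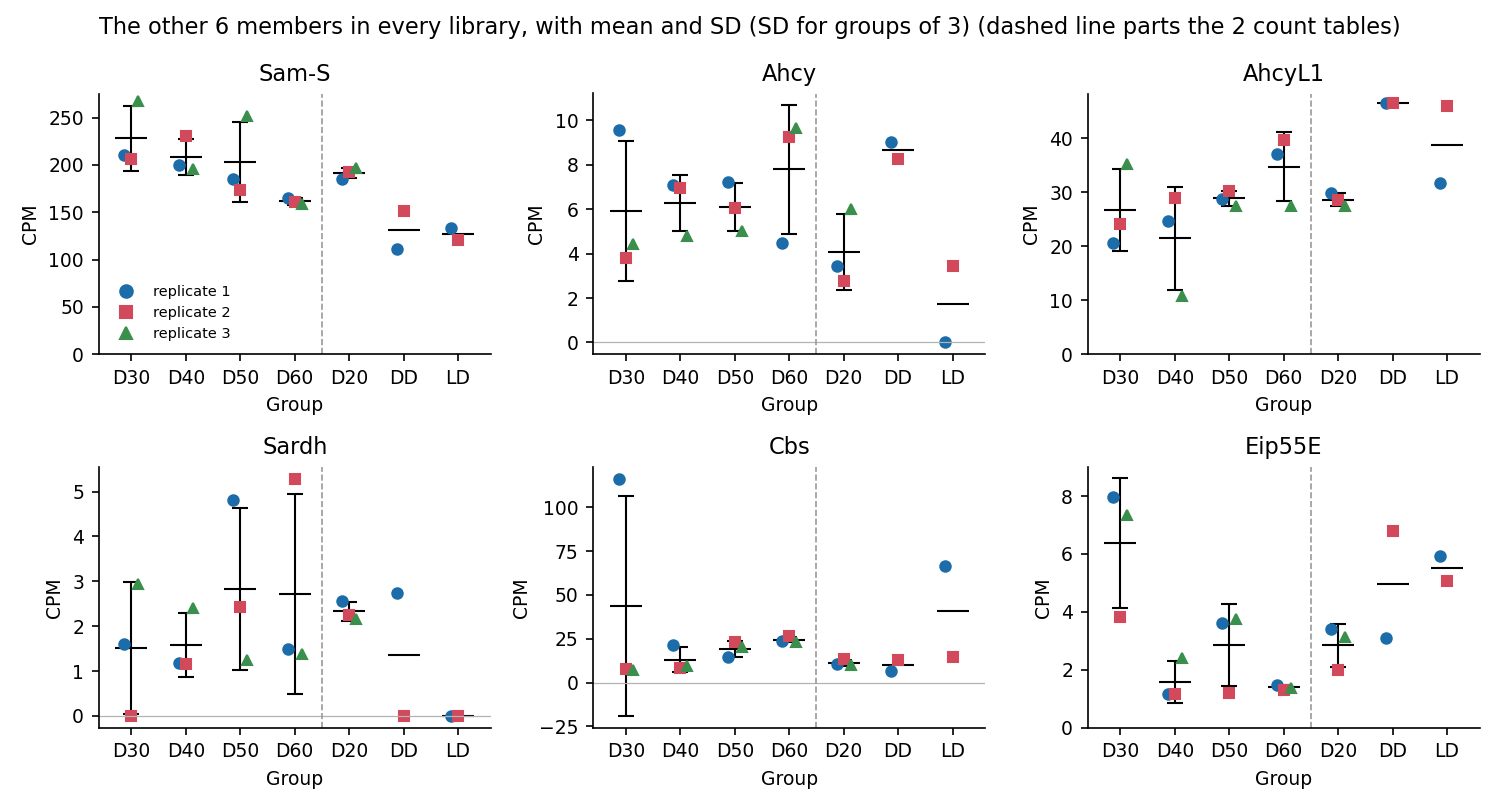
CPM of the other 6 members in each library, by group, with the group mean as a dash and the SD as a bar for groups of 3 libraries; the dashed line parts the 2 count tables. *Sam-S* lay at 158 to 165 CPM at D60 against 206 to 268 CPM at D30, and for *Cbs* D30 replicate 1 (116 CPM) stood apart from the other D30 libraries.

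Over all comparisons, few members passed the threshold. For D40 against D30 edgeR called 0 of 2 members tested, against 0.0238% of all 4209 genes, with 0 of the 2 also at an unadjusted p-value under 0.05 and 0 by DESeq2. On the slope over age it called 0 of 3 members other than *Gnmt* (18.9% of 4745 genes), with *Sam-S* alone at an unadjusted p-value under 0.05 and 0 by DESeq2. For D30 against D20 it called 0 of 4 (21.2% of 6380 genes), with *Sam-S* and *Cbs* at an unadjusted p-value under 0.05 and 0 by DESeq2. For DD against LD it called 0 of 6 (0.025% of 8003 genes), with 0 at an unadjusted p-value under 0.05 and 0 by DESeq2. For D20 against LD it called *Sam-S* and *Sardh*, 2 of 7 (23.9% of 7769 genes), as did DESeq2. Of these, *Sardh* passed the filter through D20 alone, the group where it was high, so its call was not taken as a result. The median log2 fold change of the members other than *Gnmt* was -0.48 for D60 against D30 (3 genes), against -0.01 over all genes tested, and 0.11 for D20 against LD (6 genes), against 0.15.

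Around these 7 genes, 30 genes of one-carbon supply, glycine cleavage, glutathione synthesis and polyamine synthesis were examined. Most were too low to test at the ages of the shallow table, where 20 of the 30 had under 10 counts in every library. For D60 against D30, 6 could be tested and 1 was called, against 23.6% of all genes. This was *pug*, the folate enzyme that interconverts one-carbon units, with a log2 fold change of 1.97 ± 0.45 (SE, edgeR adjusted p = 0.00861). With 6, 8 and 1 counts at D30, *pug* passed the filter through the D60 libraries alone, where it was high. Its call was therefore not taken as a result. *pug* had 20.8, 34.3 and 28.9 CPM at D60, against 9.56, 10.2 and 1.47 CPM at D30, and the groups did not overlap, as was the case in this direction for 20.7% of genes. The call was lost without D60 replicate 2 (adjusted p = 0.0538). *pug* had 18.9, 15.1 and 19.2 CPM at D40 and 33.6, 21.8 and 13.8 CPM at D50, above every D30 library at both ages, as were 6.6% and 11.4% of genes. Its slope of 0.55 ± 0.14 per 10 days was the 1 call among 7 tested (adjusted p = 0.00888), against 18.9% of all genes. In that fit too *pug* passed the filter only through the later ages, where it was high, so this call was not taken as a result. For D40 and D50 against D30, 0 of 6 and 0 of 7 were called by edgeR, with 1 in each at an unadjusted p-value under 0.05 and 0 called by DESeq2. The median log2 fold change of the list was 0.27 at D60, against -0.01 over all genes tested.

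**Figure D4:**
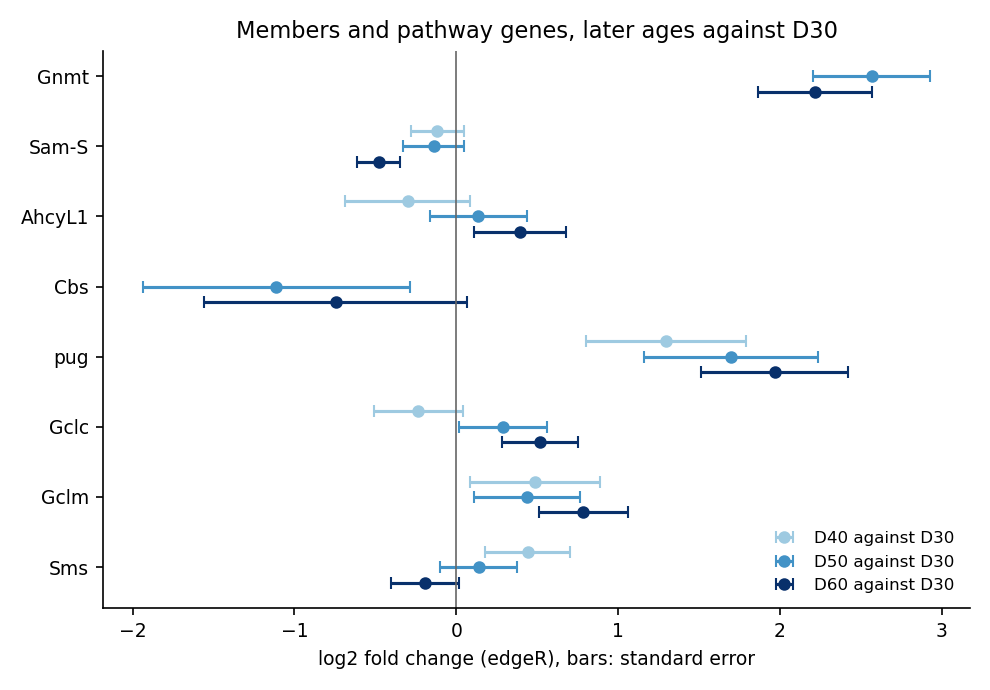
Log2 fold changes from edgeR on the horizontal axis, with standard errors as bars, for 4 members and 4 pathway genes at D40, D50 and D60 against D30. *Gnmt* lay at 2.57 for D50 and 2.22 for D60 and was filtered out at D40, as was *Cbs*; *Sam-S* lay at -0.48 and *pug* at 1.97 for D60.

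The subunits of glutamate-cysteine ligase, the enzyme that starts glutathione synthesis from cysteine, differed between D30 and D20 in opposite directions. *Gclc*, the catalytic subunit, had 57.3, 135 and 122 CPM at D30, against 48.9, 51.7 and 47.1 CPM at D20, a log2 fold change of 1.21 ± 0.22 (SE, edgeR adjusted p = 0.00160). *Gclm*, the modifier subunit, had 15.9, 31.8 and 29.4 CPM at D30, against 167, 168 and 159 CPM at D20, a log2 fold change of -2.55 ± 0.19 (adjusted p = 6.73e-07). Groups did not overlap for either gene, as was the case for 17.7% of genes in the direction of *Gclc* and 19.3% in that of *Gclm*, and age and count table cannot be told apart here. From D30 on neither was called, with *Gclm* at 0.79 ± 0.28 for D60 against D30 (adjusted p = 0.0595).

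Within the table of the deeper libraries the subunits again went apart. *Gclm* had 159 to 168 CPM at D20, against 18.9 and 14.7 CPM in LD, with a log2 fold change of 3.32 ± 0.16 (edgeR adjusted p = 0.00123), and *Gclc* had 47.1 to 51.7 CPM at D20, against 152 and 111 CPM in LD, with -1.38 ± 0.16 (adjusted p = 0.00600). Neither overlapped, as was so for 34.5% of genes in the direction of *Gclm* and 24% in that of *Gclc*. The call on *Gclc* was lost without D20 replicate 3 (adjusted p = 0.0519). In DD, *Gclm* had 92.5 and 116 CPM, against 18.9 and 14.7 CPM in LD, and the log2 fold change of 2.61 ± 0.36 did not pass the threshold (adjusted p = 0.0983, unadjusted p = 0.000356). The inner photoreceptor rhodopsins also differed between D20 and LD. The 11 fat body markers summed to 1824 and 2643 CPM in LD, against 1320 to 1445 CPM at D20. Of these markers, 9 could be tested, with 3 called lower and 1 called higher at D20, where 23.9% of all genes were called. The 1 called higher, *Obp99b*, was at 0 in both LD libraries. The part of other cells was not tested.

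The other edgeR calls in the list came in comparisons that involve D20. For D30 against D20, 4 of 12 tested were called, against 21.2% of all genes. They were *Gclc*, *Gclm*, the folate enzyme *Nmdmc* (-1.16 ± 0.36, adjusted p = 0.0381) and spermine synthase *Sms* (-0.59 ± 0.16, edgeR adjusted p = 0.0186). *Nmdmc* lost its call with DESeq2 (adjusted p = 0.0812) and without D30 replicate 1, 2 or 3 (adjusted p = 0.0978, 0.0528 and 0.0915), and *Sms* without D30 replicate 3, D20 replicate 1 or D20 replicate 3 (adjusted p = 0.0661, 0.0608 and 0.0558). For D20 against LD, 5 of 21 were called, against 23.9% of all genes, and DESeq2 called 7. The 5 were *Gclm*, *Gclc*, *pug*, *AhcyL2* and *SamDC*. *pug* had 21.6, 11.8 and 18.8 CPM at D20, against 43.2 and 48.3 CPM in LD (-1.36 ± 0.35, adjusted p = 0.0490), and lost its call without D20 replicate 1, 2 or 3 (adjusted p between 0.121 and 0.174). *AhcyL2*, a relative of *Ahcy*, and *SamDC*, which decarboxylates S-adenosylmethionine for polyamine synthesis, had 0 counts in both LD libraries. They passed the filter through D20 alone, the group where they were high, so their calls were not taken as results. At D20 they averaged 2.22 ± 0.74 CPM and 5.78 ± 0.49 CPM (SD, n = 3), 15.96 and 41.5 times the level of 3 counts per LD library. As for *Sardh*, these ratios cover counting error only and are not lower bounds on the difference. In DD *AhcyL2* had 0 and 76 counts and *SamDC* 53 and 49 counts. For DD against LD, 0 of 21 were called by edgeR, with *Gclm* alone at an unadjusted p-value under 0.05, while DESeq2 called 4, which were *Gclm*, *pug*, *CG6415* and *CG12173*. In DD *CG6415*, of the glycine cleavage genes, had 72 and 63 counts, against 0 in both LD libraries, and *CG12173*, of the methionine salvage genes, had 2 and 0 counts, against 288 and 98 counts in LD. *CG6415* passed the edgeR filter through DD alone and *CG12173* through LD alone, each the group where the gene was high, so their DESeq2 calls were not taken as results.

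**Figure D5:**
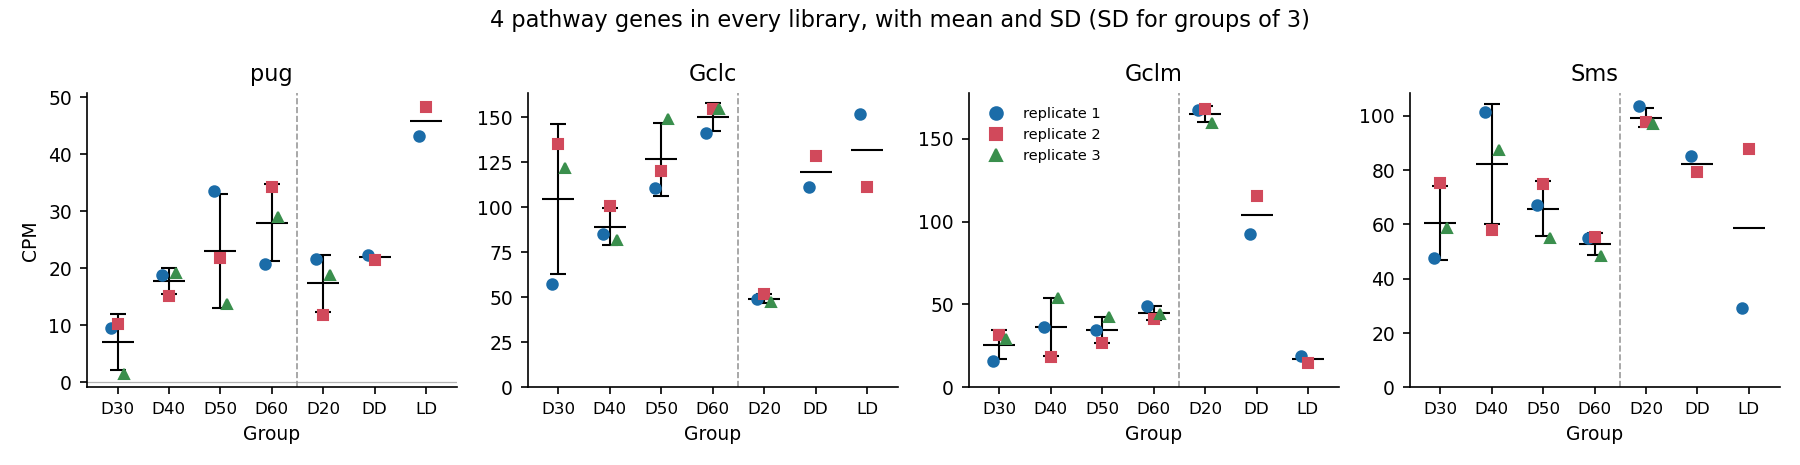
CPM of *pug*, *Gclc*, *Gclm* and *Sms* in each library, by group, with the group mean as a dash and the SD as a bar for groups of 3 libraries; the dashed line parts the 2 count tables. *pug* lay at 20.8 to 34.3 CPM at D60 against 1.47 to 10.2 CPM at D30, and *Gclm* at 159 to 168 CPM at D20 against 14.7 to 18.9 CPM in LD.

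The genes whose pattern was most like that of *Gnmt* were sought among 1727 genes with a mean of at least 50 counts over the 12 libraries of D30 to D60. The likeness was the Pearson correlation of log2 CPM, and it is a description over libraries that share ages, depth and preparation. The 5 highest were *RyR*, the ryanodine receptor of intracellular calcium stores (r = 0.912, Spearman rho = 0.790), *loaf* (r = 0.879, rho = 0.797), *Plc21C*, a phospholipase C (r = 0.858, rho = 0.769), *Snx1*, a sorting nexin (r = 0.858, rho = 0.685), and *Ifrd1* (r = 0.854, rho = 0.818). Without D30 replicates 2 and 3, the libraries farthest from the median of *Gnmt*, these correlations lay between 0.785 and 0.893.

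*RyR* had a mean of 87.3 ± 22.8 CPM at D30, 138 ± 52.9 CPM at D40, 262 ± 21.9 CPM at D50 and 350 ± 29.3 CPM at D60 (SD, n = 3 each). *Snx1* had 38.4 ± 20.2, 45.7 ± 20.2, 162 ± 19.5 and 270 ± 18.7 CPM at these ages. Both had their highest mean at D60, where the mean of *Gnmt* was at 31.3 CPM and its D50 mean at 39.8 CPM. Among the members, the correlation with *Gnmt* was -0.588 for *Sam-S*, 0.289 for *AhcyL1* and 0.126 for *Cbs* over the same 12 libraries.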

How the data were processed

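The authors deposited raw counts per gene, not normalized, in 2 tables for 19 nuclear RNA-seq libraries. The submitters' processing notes name Trimmomatic, STAR, SAMtools and DESeq2 and the dm6/BDGP6 build. Versions, annotation release, strand setting and treatment of PCR duplicates are not given in the sources used here, so a molecule may have been counted repeatedly, and intervals and floors cover counting error only. Symbols and positions came from Ensembl BDGP6 (release 115), which matched 13866 of 13929 genes.

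Each comparison was fitted on its own libraries in edgeR 4.0.16 under R 4.3.3 by its quasi-likelihood test, after TMM scaling and a filter (minimum count 10, minimum total 15) with Benjamini-Hochberg adjustment over all genes tested. Tests were two-sided and the threshold was 0.05. The standard error is the absolute log2 fold change over the square root of the F statistic. CPM were scaled by TMM separately per table, and levels were not tested across tables except in the joined fit of D30 against D20. A value of 0 was read as up to 3 counts per library. The fits were tested on simulated counts.

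The members and the gene lists were chosen with earlier results of these data known. All members are named. Of the 30 pathway genes, those past the threshold are named, up to 6 per comparison, and the genes most like *Gnmt* are the 5 with the highest Pearson correlation (prior count 2).

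Replicate numbers came from the sample titles. Libraries with the same number deviated together between D40 and D30 (correlations 0.126 to 0.283). The main fit of D40 against D30 did not pair them, and pairing entered only through the replicate block, an alternative. The alternatives were DESeq2 (version 1.42.0), RLE factors, library size alone, no filter, at least 10 counts in every library, the replicate block and each library left out in turn. For the pathway genes they were added after the data were seen.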

Additional observations from a re-analysis of the deposited data

How the results depend on the processing

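The main limits were the low counts from D30 to D60, where *Ahcy*, *Sardh* and *Eip55E* had at most 7 counts in a library, and the disagreement of the LD pair. The number of members called changed as follows. For D40 against D30 (0 called) it was 1 with no filter, where *Cbs* entered the fit (-1.69, adjusted p = 0.00153). For D60 against D30 (1 called) it was 0 with DESeq2 and 0 to 2 when a library was left out. For the slope (0 called) it was 0 to 1 without single libraries. For D30 against D20 (0 called) it was 1 with library size alone, 1 with no filter and 0 to 1 without single libraries. For DD against LD (0 called) it was 0 to 2 without single libraries, with 2 without LD replicate 2. For D20 against LD (2 called) it was 1 with library size alone, 1 when every library needed 10 counts, 0 with the replicate block and 0 to 6 without single libraries. Fits that leave LD with 1 library assume that it varies like the others, and they called 6060 and 6845 of all genes, against 1854. Of 364 fold changes of members under alternatives, 310 were counted as unchanged and 26 changed sign. Unchanged meant the same direction and the same side of the threshold. For values given without a test it meant the same direction and a shift smaller than the standard error.

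Most changes of sign were of fold changes near 0 or rested on D30 replicate 1 or an LD library. *AhcyL1* for D30 against D20 was -0.030 with DESeq2, -0.11 with no filter, -0.014 when every library needed 10 counts and -0.0036 with the replicate block, and -0.27 to 0.10 without single libraries. With library size alone, DD against LD was -0.23 for *Sam-S* and -0.036 for *AhcyL1*, a scaling that moved the median of all genes to -0.21, against 0.06. With the replicate block *Gnmt* was 0.35 for DD against LD and 0.26 for D20 against LD. Without single libraries the ranges were -0.19 to 0.0060 for *Sam-S* and -0.57 to 0.017 for *AhcyL1* at D40, -0.0086 to 0.37 for *AhcyL1* and -1.65 to 1.35 for *Cbs* at D50, -1.30 to 1.70 for *Cbs* at D60 and -0.36 to 0.53 for its slope. They were -0.52 to 2.50 for *Cbs* and -0.030 to 0.18 for *Gnmt* between D30 and D20. Between DD and LD they were -1.50 to 2.50 for *Gnmt*, -0.21 to 0.24 for *Sam-S*, -0.031 to 0.56 for *AhcyL1* and -0.84 to 0.29 for *Eip55E*, and for D20 against LD -1.33 to 2.54 for *Gnmt*. The cause was not tested. Libraries with the same replicate number did not deviate together outside D40 against D30 (for D60 against D30 the correlations were -0.027 to 0.0089). The block changed no other count of members called.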
